A study of Mus musculus with 6 samples.

Results

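The probes described here target intergenic long noncoding RNAs: transcribed loci between annotated genes, which the array names only by mouse coordinates and a strand (build mm9). The members were chosen by measured signal: a probe was taken when its name held such a locus, when the locus lay on an autosome outside a left-out stretch of chromosome 19, and when its spot was well above background on at least 3 of the 6 arrays. Of 15577 such probes, 6681 passed (42.9%), against 67.2% of the other non-control probes, and they lay in 2405 of 3381 loci. The series compared 3 brain regions (cortex, hippocampus and olfactory bulb) of male BALB/c mice aged 8 weeks, 24 h after saline (the 0 mg/kg control) or PAMAM dendrimers at 0.15 mg/kg were given into the nose. PAMAM dendrimers are branched synthetic polymers studied as drug carriers. Each of the 6 groups was a single array that took a pool of RNA from 6 independent experiments, so no group had a replicate and pooling hid the spread between mice. The 75th percentile of the spot intensity, to which each array was scaled, ran from 452 to 710.

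Long intergenic noncoding RNAs are transcripts that carry no long open reading frame, and many are spliced and polyadenylated like messenger RNAs. They are usually less abundant and more restricted to a tissue or cell type than messenger RNAs, and in the brain many lie beside genes for developmental transcription factors. Some act on neighbouring genes and others have no known role, so a neighbouring gene is a position and not a target. Both strands of such a locus can be transcribed, and a probe reads only 1 of them.

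Members were dim. Only 21.5% of them were brighter than the median detected probe. The member loci had a median length of 9927 bases, and candidate loci without a member 2341.5 bases. The members filled 2991 locus strands (a strand of a locus), 3242 probes on the forward and 3439 on the reverse strand, and 586 loci had members on both. Every member is a single spot of 60 bases, and no 2 members share a sequence. Detection on all 6 arrays held for 5242 members, and 519, 424 and 496 were detected on 3, 4 and 5 arrays. At the edge of the rule, in the locus chr10:117021051-117038683 on the forward strand, a member seen on 3 arrays had log2 values from -5.70 to -2.52, and a probe of the same locus strand seen on 2 arrays from -4.92 to -4.40. The name intergenic did not hold throughout: 323 of the 2991 locus strands contained the probe of a RefSeq gene, 192 of them on the same strand.

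The sequences of 8 members that carry the region results follow, as the array files give them, each 60 bases long and 5′ to 3′. Capitals mark AATAAA, the usual signal for adding a poly(A) tail, where the probe holds it. The letters AATAAA were in 3.98% of the member probes and in 13.9% of the other detected probes, and the reverse complement TTTATT in 2.77% and 4.14%. The loci are named by the nearest gene that has a probe on the array, and distances run to that probe, which may lie far from the start of the gene. Their probes lie at chr2:115900836-115900895, chr13:28551903-28551962, chr8:49862884-49862943, chr4:124200176-124200235, chr7:37481204-37481263, chr7:91729691-91729750, chr8:67554789-67554848 and chr9:81537979-81538038, in the order shown.
Meis2-side locus: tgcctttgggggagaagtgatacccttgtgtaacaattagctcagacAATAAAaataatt
Sox4-side locus: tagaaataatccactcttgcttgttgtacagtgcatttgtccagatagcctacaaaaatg
Tenm3-side locus: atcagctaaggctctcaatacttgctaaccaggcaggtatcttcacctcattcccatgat
1700057H15Rik locus: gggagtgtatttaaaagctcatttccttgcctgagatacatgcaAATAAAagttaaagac
Tshz3-side locus: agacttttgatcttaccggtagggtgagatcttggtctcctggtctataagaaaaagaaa
Gm2115 locus: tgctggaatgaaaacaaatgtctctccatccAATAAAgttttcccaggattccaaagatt
BC030870-side locus: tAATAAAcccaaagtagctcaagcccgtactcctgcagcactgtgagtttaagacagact
D430036J16Rik locus: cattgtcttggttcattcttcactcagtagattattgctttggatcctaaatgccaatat

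The first question was how the members differed between regions. Levels are log2 intensity relative to the array's 75th percentile, and a member was called when limma, fitted with region and treatment over all 33504 detected probes, gave a Benjamini-Hochberg adjusted p under 0.05 and a difference of at least 2-fold. The fit has 2 residual degrees of freedom, and no group is replicated. Its spread is therefore how the difference between PAMAM and saline arrays varies from region to region, noise included. The part of that difference shared by the regions is taken out by the treatment term. Counts lead with the 5242 members seen on all 6 arrays, because a member that passed detection through its bright region alone had to differ.

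The olfactory bulb stood apart. Against the hippocampus, 242 of the 5242 members were called higher (4.62% of all probes on 6 arrays were) and 168 lower (5.69%), which is 7.82% of the members against 10.3% of all probes. Against the cortex, 258 were called higher (4.47%) and 156 lower (5.95%), 7.90% of the members against 10.4%. With the members seen on 3 to 5 arrays added, the counts over 6681 were 344 higher and 245 lower against the hippocampus (5.24% and 6.15% of all probes fitted, 11.4% in either direction) and 447 higher and 206 lower against the cortex (5.66% and 6.25%, 11.9% in either direction). Members were thus called in a smaller share than the array as a whole, with more calls on the olfactory bulb side than on the other, whereas all probes split the other way. The median SE of these differences was larger for the 5242 members (0.119) than for all probes on 6 arrays (0.101). Its part in the smaller share was not tested. The median difference over the 5242 members was 0.03 against the hippocampus and 0.02 against the cortex. Over all probes on 6 arrays it was -0.05 and -0.06. Over the 6681 members it was 0.07 and 0.08, and -0.03 in both over all probes fitted. The members seen on 3 to 5 arrays alone had medians of 0.24 and 0.36. Detection was uneven: 44.1% and 50.7% of candidate probes were well above background on the bulb arrays (saline, then PAMAM). The hippocampus had 44.2% and 39.7%, the cortex 38.4% and 37.7%.

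The hippocampus and the cortex were closer. Of the members on all 6 arrays, 73 were called higher in the hippocampus (1.24% of all probes) and 25 lower (1.12%), against 2.37% of all probes in either direction. Over 6681 members they were 113 higher (1.54%) and 31 lower (1.18%), against 2.72% in either direction. These calls did not survive the loss of any array: leaving out each of the 6 arrays in turn left 0 calls by limma, with 1050 to 1646 members at an unadjusted p under 0.05 and 1376 in the full fit. Each fit with an array left out has 1 residual degree of freedom in place of 2. The lost calls therefore cannot tell whether these differences rest on any single array. With normexp background correction the calls numbered 268, 227 and 62 in place of 589, 653 and 144 for the 3 comparisons. The share of olfactory bulb against cortex calls that were higher in the bulb moved from 68.5% to 56.8%. Without the saline array of the olfactory bulb, 363 members were called against the hippocampus and 426 against the cortex, and without its PAMAM array 301 and 316. The surplus of calls on the bulb side against the hippocampus was lost without that PAMAM array, with 149 higher and 152 lower.

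The region differences repeated between the saline and the PAMAM arrays, which are separate RNA pools. Of the 396 members at least 2-fold apart between the olfactory bulb and the mean of the other regions on the saline arrays, 390 differed in the same direction on the PAMAM arrays, and r over the 5242 members was 0.86. For the hippocampus 194 of 203 kept the direction with r of 0.71, and for the cortex 171 of 183 with r of 0.63. Over the other 24307 probes on all 6 arrays r was 0.93, 0.85 and 0.80. The r are across probes that share arrays, so they describe agreement only.

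Against the mean of the other regions, 222 of the 5242 members were called higher in the olfactory bulb (4.22% of all probes on 6 arrays) and 158 lower (5.64%, and 9.86% in either direction). In the hippocampus 99 were higher (2.28%) and 59 lower (1.65%, and 3.93%). The cortex had 47 higher (2.33%) and 88 lower (1.69%, and 4.02%). Over all 6681 members the bulb had 360 higher and 214 lower (5.1% and 6%, together 11.1% of all probes fitted), in 199 and 108 loci. The hippocampus had 149 and 91 (2.74% and 1.92%, together 4.66%), in 66 and 58 loci. The cortex had 64 and 183 (2.56% and 2.42%, together 4.98%), in 39 and 114 loci. Fewer members than probes at large were thus called higher in the cortex, and 95 of the 183 lower ones were among the members not detected on all arrays. The members below were the largest by a rule set out with the processing, and their choice used these differences, so the values describe them.

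The Meis2-side locus, chr2:115900355-115900904 on the forward strand, was read by 3 probes, all on 6 arrays. It lies 210655 bases from the probe of Meis2, a homeobox transcription factor of forebrain interneuron lineages, which is on the opposite strand. The probe printed above read 3.61 and 3.797 (saline, then PAMAM) in the bulb, 1.33 and 1.46 in the cortex and 0.19 and 0.09 in the hippocampus. The bulb was high on both its arrays, the hippocampus lowest, and no array of a region overlapped another region. All 3 probes of the locus stood 2.90 to 2.98 above the other regions in the olfactory bulb and 2.28 to 2.41 below them in the hippocampus, that is -2.41 to -2.28. A probe of the 3 had a difference of 2.98 ± 0.08 (SE) with an adjusted p of 0.00111 (limma). The Meis2 probe itself was higher in the bulb by 3.12 (adjusted p = 0.0011, limma) and stood at -2.55 in the hippocampus (adjusted p = 0.0062).

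The Sox4-side locus, chr13:28551902-28975446 on the reverse strand, has 1 member, well above background on 5 arrays. It read -1.04 and -0.82 in the bulb, -4.13 and -4.31 in the cortex and -4.25 and -4.51 in the hippocampus, a difference of 3.37 ± 0.13 (SE, adjusted p = 0.00129, limma). Only the bulb was bright, and the other regions overlapped each other. Sox4, a transcription factor of immature neurons, has its probe 67410 bases away on the same strand and was higher in the bulb by 2.15 (adjusted p = 0.0013).

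On the reverse strand of chromosome 8, the loci between chr8:49853937 and 49915704 held 6 of the 8 members named for the olfactory bulb, 2 of them detected on all 6 arrays. The 4 loci are 2 separate places, since chr8:49858771-49859010 and chr8:49862898-49863497 lie inside chr8:49853937-49874087, and some of their probes overlap in sequence, so they are not independent readings. The nearest gene with a probe is Tenm3, a teneurin that guides the wiring of neurons, 373045 to 434212 bases away. The probe printed above, in the locus chr8:49853937-49874087, read 1.02 and 1.19 in the bulb, -3.33 and -2.36 in the cortex and -1.16 and -1.36 in the hippocampus. The regions did not overlap, and the order bulb, hippocampus, cortex was the same in all 4 probes of this locus. The 5 probes on all 6 arrays, all at the first place, stood between 2.56 and 3.16 above the other regions in the bulb, and the Tenm3 probe by 0.66 (adjusted p = 0.024, limma). At chr8:49915104-49915704 the cortex was not well above background on either array, and the bulb was at least 15.6-fold brighter than the cortex by the brighter of its probes. Such a bound sets the mean of the bright region against the lowest signal that counts as well above background on the dim arrays, or the dim probe's own value if higher. Both probes of that locus belong to the 1439 members that were not detected on all 6 arrays.

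Among members lowest in the olfactory bulb, the locus chr4:124127144-124334840 on the reverse strand was read by 5 probes, all on 6 arrays. The printed one read 2.66 and 2.41 in the hippocampus, 1.67 and 1.74 in the cortex and -1.31 and -1.61 in the bulb. Again no region overlapped another, and the 5 probes were between -3.68 and -3.41 in the bulb against the other regions, 1.03 to 1.17 higher in the cortex and 2.38 to 2.52 higher in the hippocampus. For the printed probe the bulb difference was -3.58 ± 0.11 (SE, adjusted p = 0.00111, limma). The probe of 1700057H15Rik, a long noncoding RNA inside the same locus and on the same strand, differed from them in 2 of the regions: it stood at -0.12 in the bulb (adjusted p = 0.54, limma) and -0.80 in the hippocampus (adjusted p = 0.038). In the cortex it was higher by 0.92 (adjusted p = 0.026), near the members' values.

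The Tshz3-side locus, chr7:37480456-37481372 on the forward strand, was low in the bulb and highest in the cortex. The printed probe read -1.89 and -2.17 in the cortex and -3.16 and -3.002 in the hippocampus, and was not well above background in the bulb, where it read -6.00 and -7.49. The cortex was at least 8.4-fold and the hippocampus at least 4.07-fold brighter than the bulb. Tshz3, a zinc finger transcription factor of cortical projection neurons, lies 76500 bases away on the same strand, and its probe was higher in the cortex by 1.51 (adjusted p = 0.007, limma) and at -1.68 in the bulb (adjusted p = 0.0018).

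Among the hippocampal loci the BC030870-side locus, chr8:67542714-67561694 on the forward strand, was read by 1 member. It was -0.91 and 0.22 in the hippocampus, well above background only on the PAMAM array in the cortex (-6.60 and -4.10) and on neither in the bulb (-6.98 and -5.83). The hippocampus was at least 27.1-fold brighter than the bulb. The member was detected on 3 arrays, 2 of them hippocampal, so only this bound is given. All 3 regions read higher on their PAMAM array here, but only in the hippocampus were both arrays well above background. The hippocampal gap was over 2-fold.

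The Gm2115 locus, chr7:91558475-91733625 on the forward strand, rests on more probes. Its printed probe read 1.42 and 1.31 in the hippocampus, -2.30 and -1.60 in the cortex and -2.93 and -2.83 in the bulb, so the hippocampal arrays stood clear of the rest. All 5 probes were called, 3.78 to 4.12 above the other regions, the printed one at 3.78 ± 0.20 (SE, adjusted p = 0.00649, limma). Gm2115, an annotated transcript inside the locus on its strand, was higher in the hippocampus by 1.34 (adjusted p = 0.009).

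The locus chr19:53517903-53540753 on the reverse strand holds Mirt1, a long noncoding RNA first described in infarcted heart. Its 5 members were seen on 3 or 4 arrays, so their differences have no exact size, and they were not alike: 1 stood 0.26 above the other regions in the hippocampus as fitted, and another was at least 8.44-fold brighter there than in the bulb. A member seen on 4 arrays read -1.06 and -1.10 in the hippocampus, -3.997 and -3.05 in the cortex and -5.55 and -5.64 in the bulb, where it was not well above background (at least 16.2-fold). The bulb and hippocampus did not overlap, and the Mirt1 probe was higher in the hippocampus by 1.40 (adjusted p = 0.0072, limma).

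Lower in the hippocampus, after the Meis2-side locus, was chr13:56851404-56851796 on the reverse strand, 7767 bases from the probe of Smad5, a transducer of BMP signals, on the other strand. Its called probe read -1.11 and -1.09 in the hippocampus, 0.31 and 0.72 in the cortex and 1.32 and 1.05 in the bulb, and the difference was -1.95 ± 0.16 (SE, adjusted p = 0.01, limma). The Smad5 probe did not pass the test there (-0.20, adjusted p = 0.21).

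In the cortex, after the Tshz3-side locus, came chr19:19005109-19008657 on the reverse strand. Its probes lie beside that of Rorb, a nuclear receptor that marks layer IV neurons, on the same strand, so the locus may not be separate from that gene on this array. The highest of its 3 members read 2.80 and 2.57 in the cortex, 0.63 and 0.54 in the bulb and 0.995 and 1.498 in the hippocampus. The cortex was clear of the others, by 1.77 ± 0.18 (SE, adjusted p = 0.0131, limma), close to the 1.72 of Rorb itself (adjusted p = 0.017). The D430036J16Rik locus, chr9:81536195-81538236 on the forward strand, read -1.27 and -1.38 in the cortex, -4.10 and -3.70 in the bulb and -2.09 and -1.93 in the hippocampus, and its 3 members were 1.04 to 1.63 higher in the cortex.

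At other cortical loci the nearest gene did not pass the test. The locus chr4:149445201-149445902 on the forward strand, 33817 bases from the probe of Gpr157, an orphan G protein-coupled receptor, had 3 members 1.33 to 1.63 higher in the cortex, whereas Gpr157 differed by -0.02 (adjusted p = 0.86, limma). At chr13:94193230-94193710 on the forward strand 3 members were 1.38 to 1.64 higher and Jmy, an actin nucleator 11534 bases away on the other strand, differed by -0.08 (adjusted p = 0.63). For chr17:13227704-13229876, the last of the 8, the single member was seen on 3 arrays and not well above background in the hippocampus, where the cortex was at least 2.88-fold brighter.

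Marker genes of the tissues bear on these levels. They were compared on the saline arrays with the mean of the other regions. Of 10 olfactory bulb neuron genes all 10 were higher in the bulb, of 10 hippocampal ones 9 in the hippocampus and of 10 cortical ones 8 in the cortex. Among these 8, Fezf2 read 0.93 in the cortex and 1.62 in the hippocampus. The lists were chosen with earlier results of these data known, so they are no separate check of the region labels. Other markers moved with them. All 7 striatal neuron genes were higher in the cortex by a median of 3.36, and their summed level (in multiples of the array's 75th percentile) was 88.9 and 89.6 there (saline, then PAMAM) against 6.92 to 13.8 in the other regions. Set against the mean of the other regions, all 10 choroid plexus genes were higher in the hippocampus, by a median of 3.22. All 8 meningeal genes were higher in the bulb on this measure, by 1.59. Yet on the saline arrays Aqp1, of the choroid plexus list, read 2.21 in the bulb but -0.27 in the hippocampus. Of the meningeal list, Dcn (3.72 against 3.49) and Igf2 (-1.83 against -1.91) read higher in the hippocampus than in the bulb. The part of these other markers in the regional members was not tested. In bulk tissue fewer cells of a type and less RNA per cell cannot be told apart.

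Probes of the same locus strand gave similar region differences. Over 1713 locus strands with 2 or more members, r between the first and the second probe was 0.71 for the olfactory bulb difference, 0.59 for the cortex and 0.67 for the hippocampus, and the median SD within a locus strand was 0.19 against 0.63 over members for the bulb. The same r for PAMAM minus saline was 0.20 in the cortex, 0.17 in the bulb and 0.13 in the hippocampus.

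The 2 strands of a locus shared little. Direction is that of the olfactory bulb minus the mean of the other regions, averaged over the members of a strand. It was the same on both strands in 322 of 586 loci (54.9%), against 50.2% over all combinations of a forward with a reverse strand, and r was 0.21. Where both strands were on all 6 arrays the share was 51.1% (n = 186), with normexp background correction it was 62.3%. These shares describe loci that overlap and share arrays, so they carry no test.

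In 6 loci both strands were at least 2-fold apart, 4 of them in the same direction (66.7%), which is also the share over all combinations of these strands. The values that follow include members not detected on all arrays, and for these the sizes are not exact. The largest was chr13:15947521-15999246, where the bulb averaged -2.53 over 4 forward members and -2.44 over 3 reverse members, and the hippocampus 1.83 and 1.87. At chr10:9322308-9332183 the bulb values were -1.72 and -1.70. At chr1:42689799-42749799, where every member was on all 6 arrays, they were -1.15 and -1.48. The strands of these loci differed by at most 0.33 in the bulb.

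Other loci were split between strands. At chr4:124127144-124334840 the reverse strand described above averaged -3.55 in the bulb, whereas 3 forward members read between -3.28 and -2.99 on average on every array and averaged 0.22. At chr14:55671783-55680316, 5 forward members were higher in the bulb by 1.07 and 5 reverse members were lower by about as much. At chr8:91471819-91551119 the 2 reverse members averaged 2.76 in the bulb and the forward member -0.29. The Mirt1 locus was likewise 1-sided, with -2.44 on the reverse and -0.23 on the forward strand.

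Neighbouring genes shared the direction of the locus more often when they were close, and most often inside it on its strand. Within 50 kb, 1196 of 2038 locus strands (58.7%) had the direction of the nearest gene, against 49.9% over all combinations, with r of 0.33. For genes on the same strand the share was 61.3% (r = 0.44, n = 1139) and on the opposite strand 55.4% (r = 0.17, n = 899). Where the gene's probe lay inside the locus on its strand it was 81.8% (n = 192), up to 5 kb away 63.4%, from 5 to 10 kb 58.4%, from 10 to 25 kb 55.6% and from 25 to 50 kb 49.8%. On the opposite strand the share was 61.8% inside the locus (n = 131), 60.9% up to 5 kb away (n = 169), 51.6% from 5 to 10 kb, 54.3% from 10 to 25 kb and 50.7% from 25 to 50 kb. Outside the locus and up to 5 kb away the shares of the strands were thus near each other, but r was not. It was 0.53 on the same strand and 0.24 on the opposite strand. The share on the same strand thus fell with distance within 50 kb, to that of all combinations, but was 57.1% again for same-strand genes from 50 to 200 kb away (n = 387). Within 10 kb and over both strands it was 64.0%. The nearest genes that RefSeq lists as long noncoding RNAs shared the direction in 130 of 179 pairs (72.6%), and protein-coding ones in 57.2% of 1800. These sets were not matched for distance or strand, so the shares are not of like sets.

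Member loci near each other were also alike. Of 1830 pairs of loci within 50 kb, 1207 (66.0%) had the same direction, against 51.4% over all combinations, with r of 0.52. Locus strands that did not overlap shared it in 63.7% of 691 pairs on the same strand (r = 0.61) and in 53.4% of 517 on opposite strands (r = 0.19).

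There were 238 clusters of 3 or more member loci with no gap over 50 kb, and the 8 with most members are given here. The largest, chr12:110842149-110988678, holds 10 loci and 55 members and contains Mirg, a host of microRNAs in the imprinted Dlk1-Dio3 region, which is expressed from the maternal chromosome. Here 49 of 55 members were higher in the cortex and 4 in the bulb, and the median over all 55 was 0.29 in the cortex. The Mirg probe was higher in the cortex by 0.41 (adjusted p = 0.03, limma), under the 2-fold line. The next, chr13:94180737-94203935, has 13 loci and 38 members: 25 were higher in the cortex and 2 in the hippocampus. The median over all 38 was 0.83 in the cortex. At chr16:89961600-90127636 the median of 31 members was 0.83 in the bulb and -0.65 in the cortex, but the members ran from -0.81 to 1.35 in the bulb. At chr8:19678750-20038750, 28 of 31 members were higher in the bulb, with a median of 0.38 over all 31. At chr17:46972160-47023558, 23 of 28 were, with a median of 0.34 over all 28. In the clusters at chr18:36449530-36489249, chr11:95561419-95658549 and chr6:30983012-31293337 the medians lay between -0.15 and 0.14 in every region. Members of a cluster share arrays and their loci can overlap, so these counts are not of separate readings.

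Long noncoding RNAs with gene names, from a list of 42, give a scale for these loci. Of them 30 had a probe and 27 were detected on at least 3 arrays. In the olfactory bulb 3 were called higher (5.1% of all probes fitted) and 2 lower (6%), with a median over the list of -0.05. Dlx6os1, antisense to a homeobox gene of interneurons, was higher by 3.08. Pax6os1 was called higher too, but was well above background on 3 arrays, so no size is given. Sox2ot, which overlaps the stem cell factor Sox2, was higher by 1.67. Pantr1, beside the cortical transcription factor Pou3f3, was at -1.94. Six3os1 was the other one called lower, and read -6.98 and -7.11 in the bulb, under the lowest signal that counted as above background. Meg3, the imprinted RNA of the cluster that holds Mirg, differed by -0.18 in the bulb, and was the brightest of the list at 6.21 to 6.60.

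The second question was how the members differed 24 h after PAMAM. Within a region this is a difference between 2 arrays and has no test. Over 295 probes spotted repeatedly, the spots of a probe on an array imply an SD of 0.10 for such a difference, which covers spot noise only. Over members measured on both arrays the median difference was 0.01 in the bulb (n = 6429), -0.05 in the cortex (n = 5447) and 0.02 in the hippocampus (n = 5903), against -0.00 over all probes in the bulb and the cortex. In the cortex 42.2% of members were above 0, and 49.6% of all probes.

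Few members reached 2-fold. In the bulb 4 were higher and 12 lower on the PAMAM array (0.0685% and 0.238% of all probes measured on both arrays). In the hippocampus 63 were higher and 4 lower (0.61% and 0.0601%). The cortex had 20 higher and 41 lower (0.326% and 0.487%). At 1.5-fold there were 71 higher and 134 lower in the bulb (0.691% and 1.53%), 217 and 64 in the hippocampus (2.46% and 0.835%), and the cortex had 114 and 324 (1.75% and 3.62%). In the cortex the split rested on the scaling: after quantile normalization 33 were higher and 29 lower. In the bulb normexp background correction left 2 higher and 2 lower. Members well above background on 1 array only numbered 208 in the bulb, 720 in the cortex and 699 in the hippocampus. That array was the PAMAM one for 194, 334 and 72 of them. Bounds of at least 2-fold held for 5 higher and 5 lower members in the bulb (1.67% and 3.45% of all 2929 such probes). The cortex had 5 and 45 (5.08% and 11.2% of 2420), and the hippocampus 27 and 1 (11.6% and 0.998% of 3007). Those probes, unlike the members, were not held to detection on 3 arrays, so the shares are not of like sets.

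The largest differences stood on single probes. In the hippocampus the member of chr11:95359115-95369547 on the forward strand, 1626 bases from the probe of Nxph3, a neurexin ligand, read -4.34 on the saline array and 0.22 on the PAMAM array, a difference of 4.56, and between -5.23 and -3.92 on the other 4 arrays. The other probe of that locus strand differed by -0.28. At chr4:129497990-129515290 on the reverse strand the values were -4.04 and -0.03, and its other 3 probes differed by -0.08 to 0.10.

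The cortex gave the same picture with the saline array as the bright one. At chr7:106525007-106525661 on the reverse strand the saline array read -0.73 and the PAMAM array -4.31, and the other probe of the locus differed by -0.36. At chr4:128727332-128735227 on the forward strand they read -0.27 and -3.24, and 3 other probes differed by -0.01 to 0.49. In both, the 4 arrays of the other regions were below the saline cortex, at -4.78 to -4.27 and -3.10 to -1.72. Both spots lie within 3 rows and 3 columns of other spots that were 2-fold lower on the PAMAM array, by up to -1.78 and -2.88.

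In the bulb the largest positive difference was at chr2:158169020-158191295 on the reverse strand, where Snhg17, a host of small nucleolar RNAs, lies. A member there read -2.51 and -0.89, and 8 other probes of the locus strand differed by -0.58 to 0.19. Within 3 rows and 3 columns of its spot lie spots of other loci that were higher by up to 3.27. At chr13:24611851-24612400 on the reverse strand the only member read -1.58 on the saline array and -4.09 on the PAMAM array. Its saline spot was uneven: the CV over its pixels was 85.5%, against 23.4% for members as bright.

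Counted over the 3 regions, another probe of the same locus strand was at least 2-fold in the same direction for 0 of 13 bulb members that had such a probe, 8 of 48 cortical and 4 of 43 hippocampal ones. These came in pairs on a locus strand, so each such locus strand was counted by both its probes. The median of the other probes had the same sign for 9 of the 13, 33 of the 48 and 26 of the 43 members. Counting instead by the median of locus strands with 3 or more measured probes, 0 of 994 were 2-fold in the bulb, 2 of 822 in the cortex and 1 of 893 in the hippocampus. Among members brighter than the median probe, 2 were 2-fold in the bulb, 1 in the cortex and 2 in the hippocampus.

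The position of the spots on the array moved with these differences. Of the 63 members higher in the hippocampus, 33 (52.4%) had another spot, of any non-control probe, that was also 2-fold higher within 3 rows and 3 columns, against 9.93% of the members under 2-fold. In the cortex the lower members did so in 17 of 41 (41.5%, against 7.75%), and in the bulb the lower ones in 5 of 12 (41.7%, against 5.55%). The other directions were 2 of 4 higher in the bulb (50%, against 1.37%) and 4 of 20 higher in the cortex (20%, against 6.38%). In the hippocampus 1 of 4 lower members did so (25%, against 1.56%). For the difference between the bulb and the other regions on all 6 arrays the shares were 64.3% of the 2-fold higher members and 60.3% of the rest.

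The spots of all 6 hippocampal members named as highest had such a neighbour. The spot of chr11:95359115-95369547 lies 1 row from that of a member at chr1:162965309-162970704, a locus that holds the probe of the growth arrest transcript Gas5 on its other strand, and that member was higher by 2.46. It lies 3 rows from the spot of Cnga3, a photoreceptor channel, higher by 2.78. The sequences of both members, which adjoin on the array and come from different chromosomes, are these.
Nxph3-side locus: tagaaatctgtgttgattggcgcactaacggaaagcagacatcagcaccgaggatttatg
Gas5 locus: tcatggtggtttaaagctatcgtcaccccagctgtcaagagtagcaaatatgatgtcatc
Without the members that have a 2-fold neighbour on the array, 30 higher and 3 lower were left in the hippocampus, 2 and 7 in the bulb and 16 and 24 in the cortex. The part that spot position plays was not tested further.

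A few locus strands differed with every probe. In the hippocampus the only median over 2-fold was at chr8:48476637-48492537 on the forward strand, where 3 probes differed by 0.44 to 2.83 with a median of 1.51, and the spot of the highest had a 2-fold neighbour. In the cortex the highest was the Gm2115 locus described above: its 5 probes averaged -2.94 on the saline and -1.98 on the PAMAM array, with differences of 0.70 to 1.28, while they averaged -3.43 and -3.37 in the bulb and 1.11 and 0.94 in the hippocampus. The Gm2115 probe differed by -0.04. Hippocampal neuron markers were also higher on that array, 6 of the 7 detected by a median of 0.52, and their summed level was 22.8 on the saline and 31.1 on the PAMAM array, against 19.4 and 20.6 in the bulb and 64.5 and 54.6 in the hippocampus. Of the 10 markers, Cabp7, Tdo2 and Iyd were not well above background on either cortical array. Their part in the difference was not tested.

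At chr4:146507925-146532650 on the reverse strand, far from any gene with a probe, 4 members averaged -2.68 and -2.11 in the bulb, -3.02 and -2.13 in the cortex and -3.99 and -3.08 in the hippocampus. The PAMAM array was the higher one in every region, by a median over probes of 0.58 in the bulb and 0.76 in the cortex. In the hippocampus, chr8:83210957-83219451 on the forward strand was lower by 0.63 to 0.70 in all 3 probes, with a median of -0.68, and Frem3, an extracellular matrix gene whose probe lies in it, differed by -0.73. At chr8:119092623-119094219 on the reverse strand the cortex was higher by 0.67 to 0.71 in 3 probes, and Cdyl2, a chromodomain gene 4108 bases away, by 0.41.

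Lower on the PAMAM array of the cortex were chr1:163527603-163527999 on the forward strand, with a median of -1.09, and chr1:108664564-108665243 on the reverse strand, with -1.01 and all 3 probes between -1.15 and -0.81. The nearest gene of the latter, Vps4b, which acts in endosomal sorting, differed by 0.11. In all, 6 locus strands had every probe at least 1.5-fold lower in the cortex and 2 at least 1.5-fold higher, of 822. Choroid plexus genes were higher on the PAMAM array in 10 of 10 in the cortex (summed level 5.03 and 24.2) and in 10 of 10 in the hippocampus (171 and 278), and 3 of 8 detected in the bulb (6.45 and 6.21). Meningeal genes were higher in 8 of 8 in the cortex, and red blood cell genes in 4 of 4 in both the cortex and the hippocampus (medians of 0.46 and 0.55). Other lists were lower on the PAMAM array of the cortex. Hypothalamic neuron genes were higher in 0 of 5, with a median of -1.04 and a summed level of 4.02 and 0.79, and olfactory bulb neuron genes in 1 of 7 detected, with a median of -0.83. Their part in the members' differences was not tested.

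Across the 3 regions no member passed the test for a shared PAMAM difference. limma called 0 of 6681 (0% of all probes) with a lowest adjusted p of 0.78. An unadjusted p under 0.05 (limma) was found for 572 members (239 higher, 333 lower), which is 8.56% of the members against 6.34% of all probes. Among members on all 6 arrays it was found for 357, or 6.81% against 5.32% of all such probes. On all 6 arrays, 650 of 5242 members were higher in all 3 regions (14.4% of all such probes) and 736 lower (14.8%). The locus at chr4:146507925 held 2 of the 6 largest positive differences. Its top member read -3.30 and -2.62 in the bulb, -3.92 and -2.36 in the cortex and -4.27 and -3.58 in the hippocampus, a mean difference of 0.98 ± 0.22 (SE), with an unadjusted p of 0.01 that did not survive adjustment by limma.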

How the data were processed

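Total RNA from 6 groups was measured on Agilent 1-colour arrays. Scans from a G2505C scanner were turned into linear spot intensity by the authors with Agilent Feature Extraction 10.7.3.1 (array design 028005, mm9 coordinates), per the file headers. A further deposited table holds log2 values and equals the 75th-percentile-scaled log2 intensity centred on each probe's median over the arrays (r of at least 0.9999 over 29549 probes), with column medians (saline, then PAMAM) of 0.04 and 0.03 for cortex, -0.05 and 0.03 for hippocampus and -0.09 and -0.06 for olfactory bulb. Its treatment of repeated spots is not given in the sources used here.

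Here each array's log2 processed intensity was scaled by subtracting its 75th percentile, with control spots left out, outlier spots were dropped (84 to 132 per array, which left 2 candidates without a value on every array), and repeated spots averaged. The number of arrays limits the precision. limma 3.58.1 in R 4.3.3 was fitted to region and treatment over the 33504 probes well above background on at least 3 arrays. It was tested on simulated arrays. Gene symbols came from the files, updated through RefSeq accessions (27214 of 27752 matched, GRCm38.p6, for names only). No genome of the files' build was used, and neighbours are placed by probe coordinates. Left out were 577 probes on sex chromosomes and 27 in a stretch of chromosome 19. Per region the 8 highest and 4 lowest called members that kept direction on saline and PAMAM arrays and were well above background in the brighter region were named, and for PAMAM the 6 highest and 6 lowest per region, locus strands of 3 or more probes with the largest medians, the most and least alike strand pairs and the 8 clusters with most members. The members and lists were chosen with earlier results of these data known. Alternatives were normexp background correction, quantile normalization, the authors' table, other filters, an intensity trend, no treatment term, other distances and each array left out. The count of locus strands by median and the position of spots were added after the data were seen.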

Additional observations from a re-analysis of the deposited data

Results flagged for a closer look

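At 4 loci a member was at least 2-fold apart between PAMAM and saline in opposite directions in a pair of regions. At chr13:24611851-24612400 on the reverse strand it was lower in the olfactory bulb (-2.52) and higher in the hippocampus (1.001). The saline spot of the bulb had a CV over its pixels of 85.5%, against 23.4% for members as bright, and the hippocampal spot lies 2 rows from another that was 2-fold higher (1.02). At chr4:35106125-35127700 on the reverse strand it was lower in the bulb (-1.43) and higher in the cortex (1.25). At chr15:96597330-96663683 on the forward strand it was higher in the hippocampus (1.05) and lower in the cortex (-1.18), and at chr3:151746091-151753763 on the forward strand 1.28 and -1.56. The hippocampal spot of the last lies 2 rows from another 2-fold higher one (1.43).

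At 2 loci the cortex stood at least 2-fold above the other regions on the saline arrays and at least 2-fold below them on the PAMAM arrays: chr4:128727332-128735227 on the forward strand (2.14 and -1.27) and chr3:151746091-151753763 (1.13 and -1.15). The cortical spot of the former lies within 3 rows and 3 columns of 5 other spots that were 2-fold lower on the PAMAM array, by up to -2.88. The part of spot position and of uneven spots was not tested. Each direction rests on 1 array a group and on 1 probe, and the difference between regions or treatments was not tested.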

How the results depend on the processing

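No paired analysis was possible because the labels carry no replicate numbers and each group is 1 array. With normexp background correction the region calls among members were 268 (olfactory bulb against hippocampus), 227 (against cortex) and 62 (hippocampus against cortex) in place of 589, 653 and 144. With probes on all 6 arrays only, 423 members were called for the bulb against the cortex, and with no filter on dim probes 0 for the hippocampus against the cortex by limma (931 at an unadjusted p under 0.05). Leaving out 1 array at a time gave 301 to 613, 316 to 768 and 0 calls, the lowest without an array of the bulb. Each fit with an array left out has 1 residual degree of freedom in place of 2, so these counts are not at like power. Shared PAMAM calls were 0 under every alternative run. Members 2-fold between PAMAM and saline numbered 16, 67 and 61 in the bulb, hippocampus and cortex. They were 4, 19 and 11 with normexp background correction, 205, 281 and 438 at 1.5-fold, 2, 2 and 1 among brighter members, 9, 33 and 40 without members next to another 2-fold spot, and 0, 1 and 2 by locus strand medians. Strand pairs shared direction in 62.3% with normexp background correction, and loci with their nearest gene in 61.5% with it and in 64.0% within 10 kb. Nearby loci kept 65.3% to 67.9%. Of 84 values of named probes, 36 moved under normexp background correction, and 5 moved and 1 lost its call under quantile normalization. All 84 held with the authors' table. That table holds the same scaled values centred on each probe, so its differences had to be alike and it is no separate check. None reversed under these 3. The fit has 2 residual degrees of freedom, and dim members limit every PAMAM difference.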
